A study of Solanum tuberosum with 11 samples.

Results

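The transcripts described here had a low level in the condition the deposited table calls NG 5-Days and had not returned to the control level in NG 7-Days. They were chosen by their levels in that table. The control level had to be at least 5, NG 5-Days at most the control divided by 3, NG 7-Days at most the control divided by 2, and NG 1-Day above the control divided by 4. The rule took 141 of 35091 transcripts listed, which was 1.18% of the 11927 transcripts with a control level of at least 5. Because the rule used all 4 levels, the size and direction of every member's change are a description of how it was chosen and carry no test of their own.

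RNA was sequenced from thin discs of tuber skin that carried the apical bud, taken from minitubers of the potato cultivar Atlantic that were grown in a greenhouse and still dormant. The compound, NG, is spelled 1-(alpha-ethylbenzy)-3-nitroquanidine in the labels, and 10 µg of it was given in 5 µl of dimethyl sulfoxide (DMSO) by injection into intact tubers. The labels list 3, 2 and 3 libraries of NG tubers at days 1, 4 and 7, and 3 libraries of tubers that received DMSO without NG, at zero time. All tubers were injected with the solvent, and none of the 11 libraries is of DMSO tubers at days 1 to 7, so NG and the time since injection cannot be told apart. The table gives 1 level for each of 4 conditions, named Controls, NG 1-Day, NG 5-Days, then NG 7-Days. No label names a day 5, so NG 5-Days was not equated with the day 4 libraries.

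A potato tuber is a swollen stem, and its buds, the eyes, stay dormant for a time after harvest. The apical bud sits in the periderm, the corky skin, above storage tissue that holds starch and storage proteins. Cytokinins are plant hormones that promote cell division and are known to end tuber dormancy, and synthetic compounds with cytokinin activity include some nitroguanidines. A disc of this kind holds skin, bud and some storage tissue together. Fewer cells of a type and less RNA per cell cannot be told apart in such bulk samples.

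The table has identifiers without gene names, and among 32873 RefSeq genes of assembly SolTub_3.0 the number matched was 0. Members are therefore named by position, in the coordinates of the deposited table, whose genome build was not given in the sources used here. For the same reason the labelled tissue could not be checked against marker genes, and no role is given to any member. Depth per library is unknown. The level summed over all transcripts, without the 5 marked as too abundant to process, lay between 613261 and 642600 in the 4 conditions. The median ratio to Controls was within 0.03 log2 units of 0 in each NG condition.

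As a group, the members kept their control level in NG 1-Day, were lowest in NG 5-Days and stood part of the way back in NG 7-Days. Per the authors' deposited table, their median level was 23.5 in Controls, 25.4 in NG 1-Day, 3.93 in NG 5-Days, then 8.96 in NG 7-Days. Expressed as a percent of each transcript's own control, the medians were 105% in NG 1-Day, 20.7% in NG 5-Days, then 39.1% in NG 7-Days. Over all transcripts with a control level of at least 5 the same medians were 99.1%, 97.3% and 100.2%. The members' medians were thus far below control in NG 5-Days and NG 7-Days, which the rule required, and close to it in NG 1-Day. The middle 50% of members lay between 11.9% and 26.4% of control in NG 5-Days and between 30.1% and 43.8% in NG 7-Days.

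**Figure D1:**
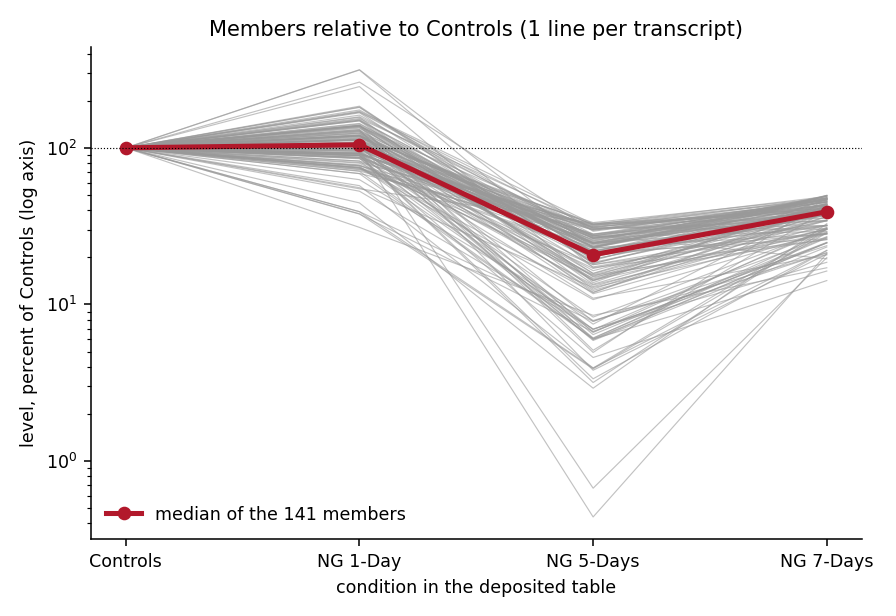
Level of each member as a percent of its Controls level (log axis) in the 4 conditions of the deposited table, 1 grey line per transcript, with the median in red at 105% in NG 1-Day, 20.7% in NG 5-Days, then 39.1% in NG 7-Days. The transcript listed at 0 in NG 5-Days and NG 7-Days has no grey line.

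The members' share of the summed level in Controls was larger than their share of the transcripts listed. Their summed level in the authors' deposited table was 16417 in Controls, 21077 in NG 1-Day, 3327 in NG 5-Days, then 6614 in NG 7-Days. These sums were 2.59%, 3.28%, 0.543% and 1.04% of the level summed over all transcripts in the same 4 conditions. That total leaves out the 5 transcripts marked as too abundant to process. The 6 most abundant members took 46.9% of the members' sum in Controls and 50.8% of it in NG 7-Days. Of the members, 24.1% had a control level of at least 100, compared with 9.10% of all transcripts with a control level of at least 5. Among 114 transcripts that met the rest of the rule but stood above its NG 7-Days bound the share was 20.2%, so high abundance was not particular to the members. Membership was 0.974% of the transcripts with a control level between 10 and 100, 2.97% of those between 100 and 500, and 3.95% (7 of 177) of those at 500 or more. The rule set a floor but no ceiling on the control level, and no test was run on this difference.

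The most abundant member lay on chromosome 8 at 1435830 to 1439140. Its level in the authors' deposited table was 2355 in Controls, 3621 in NG 1-Day, 754 in NG 5-Days, then 1092 in NG 7-Days. It was highest in NG 1-Day, and both later NG conditions lay under the control. Its NG 5-Days level was 3.13-fold lower than in Controls, a log2 ratio of -1.64 with a model error of 0.51 (the standard error implied by the authors' test statistic), at a deposited adjusted p of 0.0266. In NG 7-Days the log2 ratio was -1.11 with a model error of 1.09, so that difference was about as large as its own error. Its deposited adjusted p was 0.999999. For NG 1-Day the log2 ratio to Controls was 0.62 with a model error of 0.59, also at a deposited adjusted p of 0.999999.

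Of the other 5 most abundant members, 4 lay on chromosome 3 and had loci under 1 kb. The transcript at 20367569 to 20368402 stood at 1662 in Controls, 3064 in NG 1-Day, 302 in NG 5-Days, then 716 in NG 7-Days. The transcript at 20807645 to 20808427 stood at 1548, 2158, 357 and 760 in the same 4 conditions. Both were higher in NG 1-Day than in Controls and in NG 7-Days stood at 43.1% and 49.1% of control. Another abundant transcript of chromosome 3, at 16201969 to 16202530, stood at 825, 1226, 111 and 301. The remaining one, at 20757925 to 20758748, stood at 618, 667, 152 and 290 and so changed less in NG 1-Day. The fifth, on chromosome 1 at 74408506 to 74417239, was level between Controls (694) and NG 1-Day (690) and stood at 124 in NG 5-Days, then 198 in NG 7-Days.

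**Figure D2:**
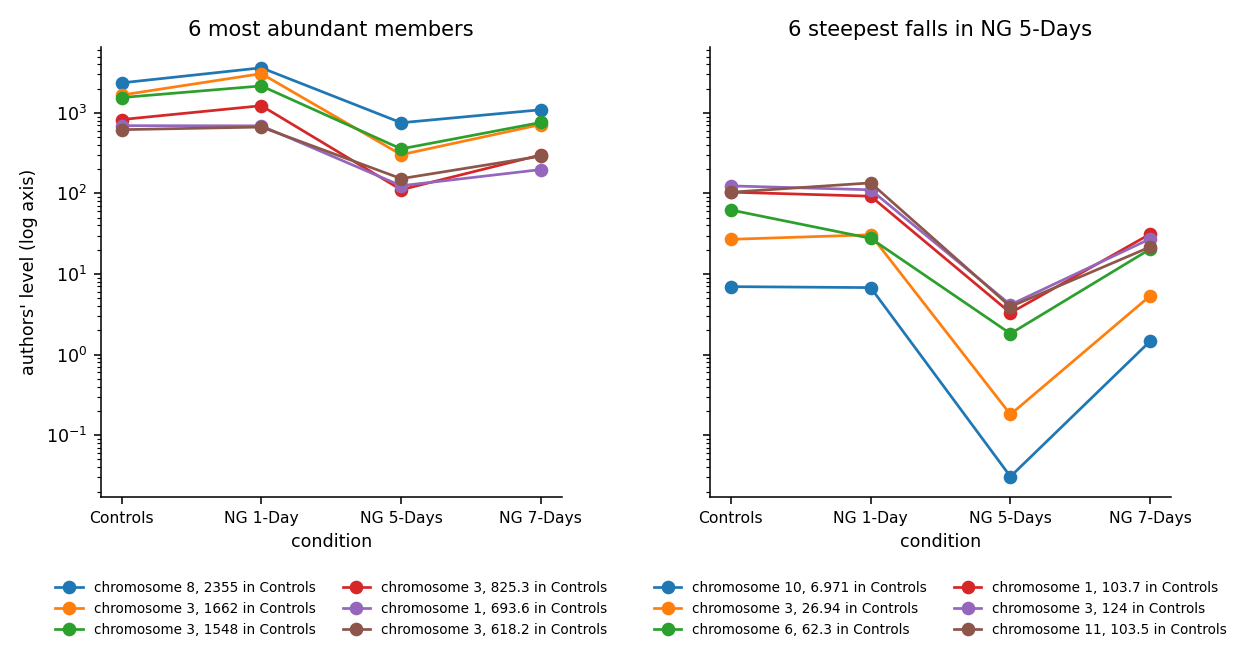
Authors' level (log axis) in the 4 conditions for the 6 most abundant members (left) and for the 6 members with the steepest ratio of NG 5-Days to Controls among those above 0 (right). Every abundant member stayed above 100 in all 4 conditions, whereas all 6 on the right were below 5 in NG 5-Days.

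The lowest levels in NG 5-Days relative to the control were far below the threshold of the rule. PGSC0003DMG400011243, on chromosome 10 at 803109 to 804065, was at 6.97 in Controls, 6.78 in NG 1-Day, 0.0306 in NG 5-Days, then 1.47 in NG 7-Days. Its log2 ratio of NG 5-Days to Controls was -7.83 with a model error of 2.20, so the size of this ratio is poorly known. PGSC0003DMG400014234, on chromosome 3 at 43352737 to 43353841, was at 26.9 in Controls, 30.7 in NG 1-Day, 0.181 in NG 5-Days, then 5.36 in NG 7-Days. Its log2 ratio of NG 5-Days to Controls was -7.22 with a model error of 0.91, and the deposited table marks that comparison as not tested. Both transcripts held their control level in NG 1-Day and stood near 20% of it in NG 7-Days.

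Abundant transcripts were also among the steepest. In the authors' deposited table the transcript on chromosome 3 at 43002241 to 43004427 was at 124 in Controls, 111 in NG 1-Day, 4.16 in NG 5-Days, then 27.4 in NG 7-Days. On chromosome 1 at 80055735 to 80056866 the levels were 104, 92.4, 3.29 and 31.4 in the same conditions. On chromosome 11 at 12252235 to 12253052 they were 103, 135, 3.93 and 21.7. These 3 transcripts stood between 3.17% and 3.80% of control in NG 5-Days and between 21.0% and 30.2% in NG 7-Days. The remaining one of the 6 steepest, on chromosome 6 at 47194136 to 47195745, differed from them in being low already in NG 1-Day, with levels of 62.3, 27.7, 1.82 and 20.4. One further member, on chromosome 6 at 47903950 to 47910482, is listed at 5.98 in Controls, 5.92 in NG 1-Day and 0 in both NG 5-Days and NG 7-Days. The table marks it as having low data in every comparison, so no fold is given for it.

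NG 1-Day divided the members into a larger part above the control and a smaller part below it. In the authors' deposited table, 80 members were above their control level and 61 below, and 111 lay within 1.5-fold of it. The share above control was 56.7%, against 47.0% of all transcripts with a control level of at least 5. None of the 55 members tested in NG 1-Day against Controls was called in either direction by the deposited test at an adjusted p under 0.05. Over all tested transcripts 1.03% were called lower and 0.0256% higher in that comparison. One tested member had an unadjusted p under 0.05, as did 8 of the 84 untested members, with a smallest p of 9.86e-05. These counts of unadjusted p were not made over all transcripts. With each comparison adjusted alone, the number of members called was also 0 (over all tested transcripts, 0.42% lower and 0% higher). Members above control in NG 1-Day stood at a median of 21.8% of control in NG 5-Days, then 40.5% in NG 7-Days. Those below it stood at 15.5% and 32.8%. The split and these percents share the Controls level, so nothing is read from this difference.

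The members with the highest NG 1-Day level relative to control were mostly short loci. On chromosome 7 at 45053844 to 45054399, the level was 204 in Controls, 643 in NG 1-Day, 46.9 in NG 5-Days, then 100.1 in NG 7-Days. On chromosome 10 at 36079138 to 36079667 it was 20.2, 53.1, 5.92 and 9.45 in the same conditions. On chromosome 3 at 20611551 to 20612220 it was 28.6, 70.3, 3.93 and 13.5. These 3 transcripts stood between 2.46-fold and 3.15-fold above control in NG 1-Day before their low level in NG 5-Days. One more, on chromosome 1 at 12804064 to 12806740, was at 6.63, 20.8, 1.14 and 1.72, but its model error was 12.03 log2 units for NG 5-Days against Controls and 19.2 for NG 7-Days against Controls, so its levels cannot be told from one another.

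At the other end, 11 members were at or under the control divided by 1.5 in NG 1-Day. The lowest was on chromosome 2 at 20113979 to 20115721, with levels of 16.6 in Controls, 5.17 in NG 1-Day, 1.42 in NG 5-Days, then 2.85 in NG 7-Days. The next 3 were 1 transcript on chromosome 10 and a pair on chromosome 6, all between 37.8% and 39.1% of control in NG 1-Day. These 4 were below control in all NG conditions and lowest in NG 5-Days.

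NG 7-Days lay above NG 5-Days in nearly all members. By the authors' deposited table, 138 members were higher in NG 7-Days than in the earlier condition, 2 were lower and 1 was at 0 in both. The median ratio of NG 7-Days to NG 5-Days was 1.90, and 64 members were at least 2-fold higher. Over all transcripts with a control level of at least 5 the median ratio was 1.01. In 29 members the NG 7-Days level was within 1.5-fold of the NG 5-Days level. The rule used both of these levels, so no more is read from the difference.

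Grouped by depth in NG 5-Days, the deeper members also stood lower in NG 7-Days as a percent of control. Both percents divide by the same Controls level, so an error in that level moves them together. Nothing is therefore read from this order. The 32 members at or under 10% of control in NG 5-Days had a median of 24.7% of control in NG 7-Days, 4.35-fold above NG 5-Days. The 36 members between 10% and 20% stood at 36.9%, 2.45-fold above NG 5-Days. The 73 members above 20% stood at 42.0%, 1.55-fold above NG 5-Days. The rule holds every member at or under 50% of control in NG 7-Days, so a member above 20% in NG 5-Days could not have a ratio over 2.5, and the order of these ratios is largely set by the rule and the classes. A range is hidden in each class, since in the deepest one the NG 7-Days level ran from 0 to 48.0% of control.

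**Figure D3:**
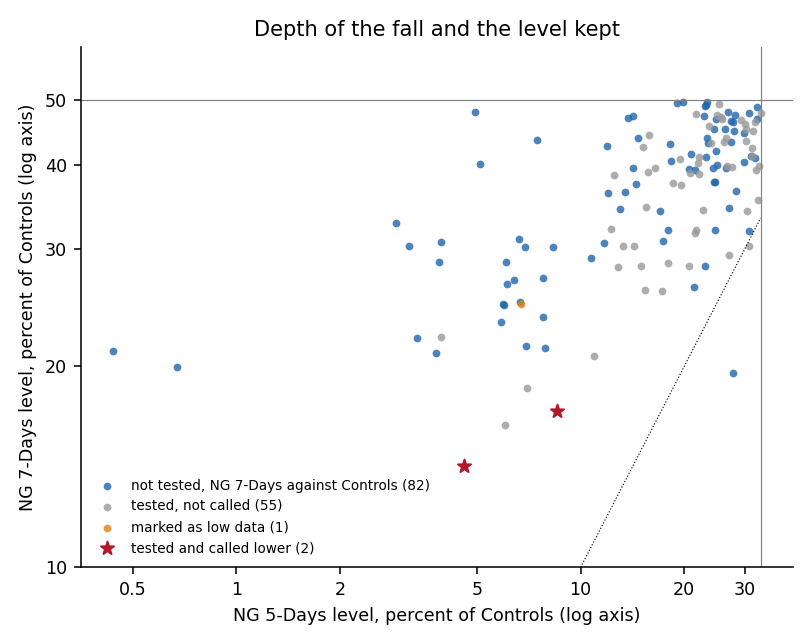
Level in NG 7-Days against level in NG 5-Days, each as a percent of Controls (log axes), for the 140 members above 0; solid lines mark the rule's bounds, the dotted line equal levels, and colours what the deposited test did in NG 7-Days against Controls. All but 2 points lie above the dotted line, and the 2 called members (stars) stand at 14.2% and 17.1% of control in NG 7-Days.

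Single transcripts differed widely in how far they came back. On chromosome 3 at 16332045 to 16332897 the level was 200 in Controls, 256 in NG 1-Day, 9.86 in NG 5-Days, then 95.8 in NG 7-Days. It had reached 48.0% of control after standing at 4.94%. By contrast, the transcript on chromosome 8 at 42759090 to 42766071 was at 13.4, 13.3, 3.71 and 2.62 and so was lowest in NG 7-Days, with a deposited adjusted p of 0.679 for that difference. On chromosome 1 at 66329036 to 66336186 the levels were 5.02, 8.50, 1.54 and 1.52, with no change between the last 2 conditions beyond the model error. No other member moved downward between these conditions.

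In NG 7-Days against NG 5-Days the deposited test covered 73 members and called 9 higher and none lower at an adjusted p under 0.05. Over all tested transcripts 2.52% were called higher in that comparison. The clearest was on chromosome 10 at 9665746 to 9666565, with levels of 123 in Controls, 106 in NG 1-Day, 9.22 in NG 5-Days, then 53.7 in NG 7-Days. Its NG 7-Days level was 5.83-fold above NG 5-Days at a deposited adjusted p of 1.65e-12. On chromosome 5 at 44212117 to 44213386 the levels were 203, 162, 29.9 and 89.1, and NG 7-Days was 2.98-fold above NG 5-Days (deposited adjusted p 1.73e-05). All 9 called members were between 2.13-fold and 5.83-fold higher in NG 7-Days and stood between 21.3% and 49.7% of control. The 9 were named or counted because the deposited test called them, and the comparison shares its levels with the rule.

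Against the control, the deposited test called many members in NG 5-Days and few in NG 7-Days. In NG 5-Days against Controls, 69 members were tested and 49 were called lower at an adjusted p under 0.05, where 0.826% of all tested transcripts were called lower. In NG 7-Days against Controls, 57 were tested and 2 were called lower, where 0.015% of all tested transcripts (3 of 19964) were called lower. With each comparison adjusted alone, 32 members were called in NG 5-Days, where 0.361% of all tested transcripts were called lower. In NG 7-Days the 2 became 0, as did the count over all tested transcripts (0%). Of the 57 tested members, 28 had an unadjusted p under 0.05, a count that was not made over all transcripts. The rule used these contrasts, so nothing is read from the shares or from that count. A call in NG 5-Days and none in NG 7-Days does not show that the conditions differ, and the members' own NG 7-Days against NG 5-Days values are those given above.

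The 2 members called in NG 7-Days against Controls both had control levels below the median of the members. The transcript on chromosome 1 at 75273081 to 75274481 was at 7.94 in Controls, 6.82 in NG 1-Day, 0.364 in NG 5-Days, then 1.13 in NG 7-Days. Its log2 ratio of NG 7-Days to Controls was -2.82 with a model error of 0.75 and a deposited adjusted p of 0.00484. The chromosome 2 transcript at 20113979, described above for its low NG 1-Day level, had a log2 ratio of NG 7-Days to Controls of -2.54 with a model error of 0.67 and a deposited adjusted p of 0.00412. Both stood at less than 20% of control, well under the bound of the rule.

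Against NG 1-Day the calls were more numerous, and those comparisons had smaller model errors. In NG 5-Days against NG 1-Day, 106 members were tested and 103 were called lower, where 6.91% of all tested transcripts were called lower. In NG 7-Days against NG 1-Day, 60 were tested and 39 were called lower, where 1.43% of all tested transcripts were called lower. All 39 were also called lower in NG 5-Days against NG 1-Day, and both comparisons share the NG 1-Day libraries. The median model error of a member was 0.29 log2 units for NG 5-Days against NG 1-Day and 0.43 for NG 7-Days against NG 1-Day, compared with 0.52 and 0.61 for the same conditions against Controls. In all, 116 members had at least 1 called comparison among the 6. That count was not made over all transcripts, so no share stands beside it. The rule used the levels behind these comparisons, so nothing is read from the count.

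**Figure D4:**
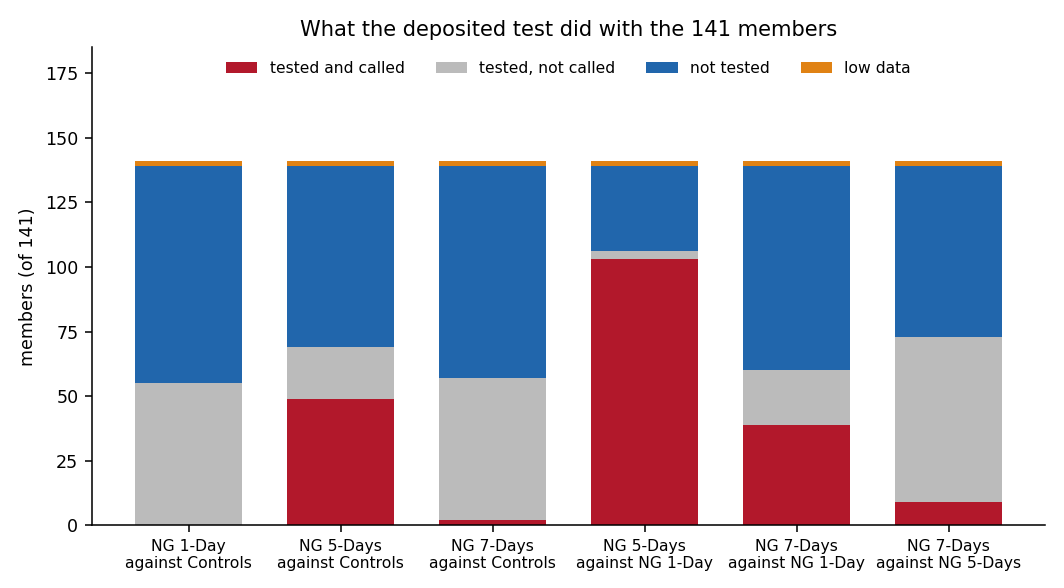
Number of the 141 members that the deposited test called (red), tested without a call (grey), did not test (blue) or marked as low data (orange) in each of the 6 comparisons. Calls ranged from 0 in NG 1-Day against Controls to 103 in NG 5-Days against NG 1-Day, and between 33 and 84 members were not tested in a comparison.

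A large part of the members was not tested by the authors, and the rule behind that mark was not given in the sources used here. In NG 7-Days against Controls 58.2% of members were marked as not tested, compared with 4.75% of all transcripts with a control level of at least 5. Members that were not tested had a median control level of 59.8, and those tested had 11.0. Of the 34 members with a control level of at least 100, 30 were not tested, while among all transcripts at that level 7.56% were not tested. Size of change went along with the mark among all transcripts with a control level of at least 5. Of the 475 that were at least 2-fold apart in NG 7-Days against Controls, 71.4% were not tested, compared with 1.99% of the rest. Among transcripts that were at or under the control divided by 2 in NG 7-Days but were not members, 20 of 63 (31.7%) were not tested.

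In NG 7-Days against Controls the absence of a call in these members is therefore often the absence of a test. With the untested lines adjusted along with the rest, 19 of 139 members (tested and untested together) were called lower in that comparison. Over all transcripts 0.0571% were. Untested members stood at a median of 39.4% of control in NG 7-Days and tested members at 39.1%, with median model errors of 0.56 and 0.71. Of the 82 untested members, 67 carried an unadjusted deposited p under 0.05 in that comparison, and the smallest was 5.50e-06, for the chromosome 8 transcript at 42759090. Set against its model error, the NG 7-Days ratio to Controls lay below 1 by more than 1 error in 138 members and by more than 2 errors in 92. It lay below the rule's NG 7-Days bound by more than 1 error in 43 members. The NG 5-Days ratio lay below its own bound by more than 1 error in 81 members, and both held in 39, so for the others membership could change with the error of the levels. The rule used these contrasts, so the counts of small p-values and of errors follow in part from how members were chosen. The same counts over all transcripts were not made.

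When the untested lines were adjusted along with the rest, many more members were called. In NG 7-Days against Controls 19 members were called lower, out of 20 transcripts called lower in the whole table (0.0571%). In NG 5-Days against Controls 116 were called lower, where 0.842% of all transcripts were. Against NG 1-Day, 98 members were called lower in NG 7-Days, where 1.15% of all transcripts were. Against NG 5-Days, 41 were called higher in NG 7-Days, where 2.62% of all transcripts were. In NG 1-Day against Controls 2 members were called, the chromosome 7 transcript at 45053844 as higher (0.0514% of all transcripts) and the chromosome 6 transcript at 49745090 as lower (0.682%). In NG 5-Days against NG 1-Day, where most members had been tested, 135 of 139 were called lower (4.54% of all transcripts), compared with 103 of 106 before.

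Transcripts just inside and just outside each bound differed little in the quantity that divided them. At the NG 7-Days bound the nearest member, on chromosome 8 at 39237043 to 39238308, was at 49.7% of control (84.4 in Controls, 86.2 in NG 1-Day, 19.7 in NG 5-Days, then 42.0 in NG 7-Days). The nearest transcript outside, on chromosome 3 at 20471280 to 20471871, was at 50.3% with levels of 1023, 1092, 264 and 514. At the NG 5-Days bound the nearest member stood at 33.3% of control and the nearest transcript outside at 34.1%. At the control bound the values were 5.02 inside and 4.89 outside. The NG 1-Day condition removed no transcript, and the lowest member in NG 1-Day stood at 31.0% of control.

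Applying the same rule without its day 7 condition gave 255 transcripts, of which the members were 55.3%. The other 114 were above the control divided by 2 in NG 7-Days, and 28 of them were above the control itself. Members had a median control level of 23.5, and the 114 had 18.7. Members stood at a median of 20.7% of control in NG 5-Days and the 114 at 25.1%. In NG 1-Day 56.7% of members and 66.7% of the 114 were above control. No test was run between these sets, because the levels that divide them also set the medians, and the boundary cuts through a continuous range.

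Members lay on all 12 chromosomes. Chromosome 1 held 23 members, chromosome 6 held 20, chromosome 9 held 18 and chromosome 3 held 17, while chromosome 11 held 2. As a share of the transcripts with a control level of at least 5, members ranged between 0.249% on chromosome 11 and 2.0% on chromosome 9.

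Members had shorter loci than most transcripts with a control level of at least 5, and so did the 114 that were above the NG 7-Days bound. The median length of a member's locus was 1610 bases, compared with 4137 bases for all transcripts with a control level of at least 5 and 2436 bases for all transcripts listed. For the 114 it was 1309.5 bases, so a short locus was not particular to the members. Loci under 1 kb made up 34.0% of members, 38.6% of the 114 and 8.68% of the transcripts with a control level of at least 5. Among those transcripts, 4.64% of the 1035 with loci under 1 kb were members, compared with 0.854% of the 10892 longer ones. The 2 shortest were 442 and 445 bases long, on chromosome 1 at 66097550 and on chromosome 8 at 41547533, and the longest was 8989 bases long, on chromosome 9 at 51280329.

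Short members were more often above control in NG 1-Day than longer ones. Of the 48 members with loci under 1 kb, 38 (79.2%) were above control in NG 1-Day, and of the 93 longer members 42 (45.2%) were. Over all transcripts with a control level of at least 5 the same shares were 58.5% for loci under 1 kb and 45.9% for longer ones, so the direction of this difference was shared with the rest of the table. The median NG 1-Day level was 123% of control in short members and 97.9% in longer ones. The median NG 5-Days level was 21.2% of control in short members and 20.7% in longer ones, and in NG 7-Days the medians were 40.0% and 36.6%. Their median control level was 33.4 in short members and 17.2 in longer ones. Several short members lie next to one another, so they are not independent of each other.

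Neighbouring loci were often members together. Of the members, 31 (22.0%) were directly beside another member on the list of loci, in 14 runs. Of the 11786 other transcripts with a control level of at least 5, 0.942% were beside a member. Without the 2 pairs of members listed at an identical locus, 27 members remained beside another. Those 2 pairs are included in the differences given next. Neighbours had similar profiles. The median difference between adjacent members was 0.15 log2 units in NG 1-Day relative to control, 0.22 in NG 5-Days, then 0.10 in NG 7-Days, compared with 0.45, 0.77 and 0.35 over all pairs of members. Their control levels were no closer, with a median difference of 2.20 log2 units between adjacent members and 1.89 over all pairs. Whether neighbours are near-identical copies, between which the counting could divide reads, was not tested, since no sequence was used here.

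A wider stretch, picked out after its values were seen, spanned 496.6 kb of chromosome 3 at 20367569 to 20864129. It was not a run, because transcripts that were not members lay between the members. It held 14 transcripts with a control level of at least 5, and 7 of them were members. The 7 members, all with loci between 670 and 854 bases, summed to 4211 in Controls, 6316 in NG 1-Day, 889 in NG 5-Days, then 1947 in NG 7-Days, and so carried 25.7% of the level of all members in Controls. Their NG 7-Days levels lay in a narrow band between 43.1% and 49.1% of control, next to the bound of the rule. Of the 7 other transcripts at that level, 6 were also below control in NG 5-Days, and 5 of the 7 stood between 50% and 69% of control in NG 7-Days. The odd ones out were a transcript at 20393266 to 20394022, which stood at 186% of control in NG 7-Days, and one at 20689137 to 20689684, which was at 133% in NG 5-Days, then 112% in NG 7-Days. The bound thus divided a stretch whose transcripts mostly shared a profile.

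A deeper profile was shared by 5 members within 15.5 kb of chromosome 6, at 52389133 to 52404584. Their levels differed widely in Controls, between 24.8 and 470, and 4 of the 5 stood between 5.89% and 6.62% of control in NG 5-Days. The exception, at 52392736 to 52393454, was at 15.1% of control in NG 5-Days, then 42.6% in NG 7-Days, where the others were between 23.3% and 31.0%. It was also the only 1 of the 5 that was tested in NG 7-Days against NG 5-Days, and it was called higher at 2.82-fold (deposited adjusted p 0.00674). The others were marked as not tested in that comparison and were between 3.95-fold and 4.68-fold higher. On chromosome 9 at 27832512 to 27886380, 5 members with loci between 836 and 898 bases were all above control in NG 1-Day, between 133% and 152%. Those NG 1-Day log2 ratios lay between 0.42 and 0.61, with model errors between 0.45 and 0.75, so they were about as large as their errors or smaller. These members stood between 15.7% and 23.2% in NG 5-Days and between 37.4% and 47.7% in NG 7-Days.

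A further pair of groups stood out by being low in NG 1-Day. On chromosome 6, the pair at 49745090 to 49748796 and 49768037 to 49770231 had control levels of 111 and 10.6 and stood at 39.1% and 37.9% of it in NG 1-Day. They were at 3.92% and 3.88% in NG 5-Days, and at 30.6% and 28.6% in NG 7-Days. On chromosome 10, the neighbours at 4123287 to 4126292 and 4164115 to 4167489 stood at 39.1% and 37.8% in NG 1-Day, 7.79% and 6.69% in NG 5-Days, and 23.7% and 24.9% in NG 7-Days. Within each pair the relative levels differed by less than the model errors, and the 2 pairs differed from each other most in NG 5-Days. One more member within 50 kb of the chromosome 10 pair stood higher, at 75.2%, 11.9% and 42.7% of control.

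**Figure D5:**
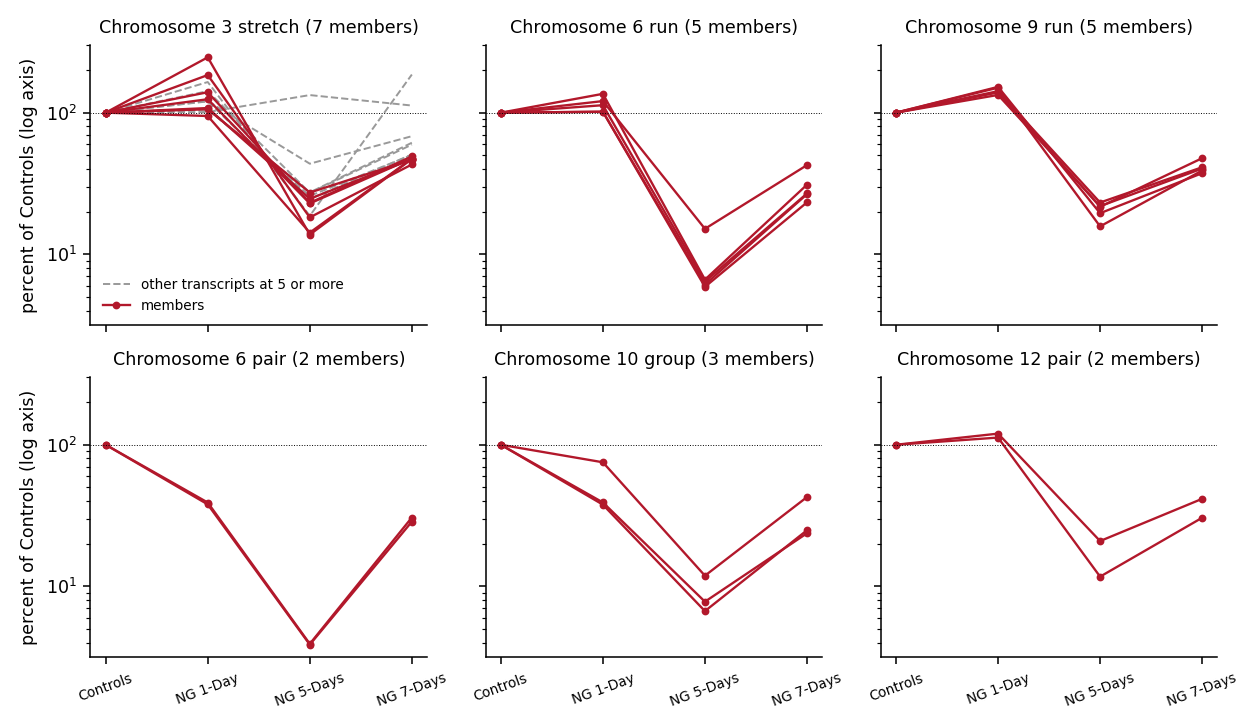
Level as a percent of Controls (log axis) in the 4 conditions for 6 groups of nearby members (red). Dashed grey lines are the other transcripts of the chromosome 3 stretch that had a control level of at least 5. The chromosome 6 pair and 2 of the 3 in the chromosome 10 group were already near 39% in NG 1-Day, whereas the chromosome 9 run was between 133% and 152%.

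Members of the remaining runs, all pairs, were within 1.5-fold of control in NG 1-Day. On chromosome 12, neighbours at 3139669 to 3140616 and 3142146 to 3142608 had levels of 139 and 596 in Controls, 156 and 715 in NG 1-Day, 16.2 and 125 in NG 5-Days, and 42.3 and 248 in NG 7-Days. On chromosome 2 at 25167957 to 25173228, a pair with control levels of 173 and 37.6 stood at 49.6% of control in NG 7-Days in both transcripts. On chromosome 8 at 39209100 to 39238308, a pair stood at 48.1% and 49.7% in NG 7-Days. The chromosome 12 pair differed more in NG 5-Days, at 11.7% and 20.9% of control. In 2 pairs, on chromosome 1 at 74408506 to 74417239 and on chromosome 6 at 34151837 to 34156919, both transcripts are listed at the identical locus, and how reads were divided between the 2 entries of each was not given in the sources used here.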

How the data were processed

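The authors' deposited table, the only file, gives 1 level per transcript and condition, a log2 fold change, a test statistic, and a p-value and q-value. Its layout is that of Cuffdiff, per the file headers. The deposited header names no unit for the level. The build, the software versions and any filters were not given in the sources used here. With no value per library, depth is unknown, no mean ± SD or n exists, and the edgeR and limma tests that need libraries could not be run. The labels do not say that libraries came from separate tubers.

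The members and lists were chosen with earlier results of these data known. Transcripts marked as too abundant in any line (5) were dropped. For 8 transcripts lines disagreed on a level, none of them a member. Model errors are the absolute deposited log2 fold change divided by the deposited statistic. Calls are deposited q-values under 0.05. Benjamini-Hochberg adjustment over all 118862 tested lines of the 6 comparisons gave the deposited q-values to within 3.32e-06. The recomputation was tested on simulated data.

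Members were named by rule: the most abundant, the steepest, those called against Controls in NG 7-Days, the extremes of NG 1-Day and of NG 7-Days over NG 5-Days, neighbours, those at the bounds, and the longest and shortest. Members called in NG 7-Days against NG 5-Days and the chromosome 3 stretch were added after their values were seen. Identifiers are printed for 2. Python 3.11.15, pandas 2.3.3 and numpy 2.4.6 were used, with matplotlib 3.10.9. Alternatives were other minimum levels, pseudocounts, scalings, bounds, adjustments and neighbour distances.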

Additional observations from a re-analysis of the deposited data

How the results depend on the processing

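No paired analysis was possible because the deposited table has 1 value per condition, and leaving out a library was not possible either. The number of members was 594 with no minimum control level, 55 with a pseudocount of 5 and 52 with NG 7-Days at most the control divided by 3, compared with 141. It lay between 100 and 198 under the other bounds, scalings and pseudocount tried. With the lines marked as not tested adjusted along with the rest, 116 members were called lower in NG 5-Days against Controls (0.842% of all transcripts). In NG 7-Days 19 were called lower against Controls (0.0571%) and 98 against NG 1-Day (1.15%). In NG 7-Days against NG 5-Days 41 were called higher (2.62%). In NG 1-Day against Controls 2 were called, 1 higher (0.0514%) and 1 lower (0.682%). With each comparison adjusted alone, 32 were called lower in NG 5-Days against Controls (0.361% of all tested transcripts). In NG 7-Days against Controls there were 0 (0%). The rule used these contrasts, so nothing is read from the counts. With a pseudocount of 5 the members' median log2 ratio was -1.48 in NG 5-Days against Controls (-2.26 without), -1.52 in NG 5-Days against NG 1-Day (-2.55 without; -2.22 with a pseudocount of 1) and 0.45 in NG 7-Days against NG 5-Days (0.93 without). Within 10 kb, 18 members had a neighbouring member, compared with 31 by order of loci. The members' median locus length was 66.1% of that of all listed transcripts and 38.9% of that of transcripts with a control level of at least 5. Of 52 values recomputed, 36 stayed within 1.5-fold of the main count or within 1 median model error of the main ratio. The other 16 moved further. A count cannot reverse and a pseudocount cannot change the sign of a ratio, so few of the 52 could have reversed. The causes were not tested. Pseudocounts shrink the ratios of low levels by construction.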
